A study of Mus musculus with 2 samples.

Results

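Accessible chromatin was examined at 10 mouse genes whose products make up the core of blood clotting: the coagulation factors F2 (prothrombin), F5, F7, F9, F10 and F11, the clotting inhibitor Serpinc1 (antithrombin), and Fga, Fgb and Fgg, which encode the 3 chains of fibrinogen. A region was taken as a member when its closest transcription start site (TSS) was that of one of these genes. Of 69549 distinct regions, 36 met this rule, 13 of them with their centre within 1000 bp of the TSS (here called promoter regions) and 23 farther away. All 10 genes had a promoter region, and 8 of them had another region as well. F5 and F7 had none, which for F5 leaves out several regions in its gene body that lie closer to another start.

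The data were ATAC-seq libraries of whole liver, in which the Tn5 transposase cuts open DNA and the number of reads on a region measures how accessible it is. One library came from Mettl3 flox/flox mice, which carry floxed Mettl3 alleles and no Cre, and the other from Mettl3-HKO mice (Mettl3 flox/flox Alb-Cre+/-), in which the albumin-driven Cre removes Mettl3, the RNA m6A methyltransferase, in hepatocytes while other liver cells keep it. Both groups were C57BL/6, 8 weeks old and on normal chow, and each library was pooled from the livers of 4 mice. With 1 library per group there is no spread between replicates, so no test was made, and the 95% intervals given are Clopper-Pearson intervals of the counts that cover counting error only.

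Clotting proceeds as a cascade of serine proteases made mainly by hepatocytes and released into plasma as inactive precursors. F7 starts the extrinsic arm, F11 and F9 act in the intrinsic arm, and F10 with its cofactor F5 converts prothrombin to thrombin, which cuts fibrinogen into fibrin. Antithrombin blocks thrombin and activated F10, and the genes of all these proteins are transcribed in hepatocytes from promoters bound by liver-enriched factors such as HNF4, FOXA and C/EBP.

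The authors scaled the libraries to totals of 52826202 reads (Mettl3 flox/flox) and 58038305 reads (Mettl3-HKO), of which 31.7% and 22.3% lay on the regions. Ratios are given as log2 of the Mettl3-HKO value over that of Mettl3 flox/flox, with 1 read added to each count. Their median was below 0 across the table, at −0.56 for all 14387 promoter regions and −0.27 for the 55162 others, and each member is set against the median of its own kind. Promoter regions of endothelial marker genes lay on the other side: 5 of the 6 found were at least 2-fold higher in Mettl3-HKO, where 4.07% of all promoter regions were, and their signal summed to 2.46 and 6.41 RPM (reads scaled to a common library size). Those 5 had a peak in Mettl3-HKO only and so were in the table through the library in which they were high. Clec4g, the region with a peak in both libraries, was at 0.57, and Emcn and Pecam1 had none. No promoter region was found for the 4 Kupffer cell markers, 1 for the 4 stellate cell markers (Reln, 690 and 132 counts, log2 ratio −2.51) and 2 for the 4 cholangiocyte markers (Sox9 at −0.52 and Epcam at 0.01). The 8 promoter regions of hepatocyte markers had a median log2 ratio of −0.60. Hpd at −1.72 and Ttr at −1.08 were at least 2-fold lower, the latter in the table through a peak in Mettl3 flox/flox only. Alb, with 480 and 533 counts (0.02), was the region above 0. The part of these differences in cell makeup, or of the lower share of reads on regions, in the values that follow was not tested, and in whole tissue fewer open hepatocyte nuclei and less open chromatin per nucleus cannot be told apart. Reads on the Mettl3 promoter region (566 and 392, log2 ratio −0.66) do not check the deletion.

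The sequences just upstream of 6 of the members are shown because their promoter regions span the range of ratios: F5, F7 and Fgg had the 3 lowest ratios, and F9, Fgb and F11 were near or above the median of all promoter regions. Each is the 120 bases before the RefSeq start on GRCm38.p6, read 5′ to 3′ on the gene's strand, and lies wholly inside the gene's promoter region. F5 is at chr1:164151715-164151834 (+), F7 at chr8:13025914-13026033 (+), Fgg at chr3:83007604-83007723 (+), F9 at chrX:59999344-59999463 (+), Fgb at chr3:83049864-83049983 (−) and F11 at chr8:45262032-45262151 (−). Capitals mark matches to the motif letters described after them.
F5: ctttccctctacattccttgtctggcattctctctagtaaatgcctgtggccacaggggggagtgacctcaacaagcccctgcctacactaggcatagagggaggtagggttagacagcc
F7: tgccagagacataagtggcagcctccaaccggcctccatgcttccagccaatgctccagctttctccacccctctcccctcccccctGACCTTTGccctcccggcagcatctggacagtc
Fgg: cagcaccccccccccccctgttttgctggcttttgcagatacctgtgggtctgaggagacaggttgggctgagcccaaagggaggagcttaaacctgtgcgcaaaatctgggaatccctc
F9: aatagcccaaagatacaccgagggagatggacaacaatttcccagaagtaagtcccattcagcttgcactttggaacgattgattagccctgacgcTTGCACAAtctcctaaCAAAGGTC
Fgb: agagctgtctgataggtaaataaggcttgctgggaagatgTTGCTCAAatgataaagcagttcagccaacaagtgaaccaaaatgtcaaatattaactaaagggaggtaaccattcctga
F11: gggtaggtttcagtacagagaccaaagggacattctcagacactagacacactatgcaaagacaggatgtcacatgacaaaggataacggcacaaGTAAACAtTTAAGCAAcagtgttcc

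The letters searched, on both strands of the 300 bases from 250 before to 50 after each start, were TATAAA for the TATA box, CAAAGTCC and CAAAGGTC for HNF4, TGTTTAC for FOXA, TTGCNNAA for C/EBP and GGGCGG for SP1. All 10 members were matched in the RefSeq promoter table of 32851 promoters, and no 2 of the matches found in them overlapped. TTGCNNAA was the most frequent of the liver motifs, in F9, F11, Serpinc1, Fga and Fgb (5 of 10, against 10.8% of all promoters). CAAAGGTC was in F7 and F9 (2 of 10, against 1.17%) and TGTTTAC in F11 alone (3.65% of all). GGGCGG was in F5 alone, against 35.7% of all promoters, while TATAAA (13.6%) and CAAAGTCC (1.42%) were in none of the 10. The members also held few CpG dinucleotides, 3 to 6 in 300 bases with a median of 5, against a median of 7 in all promoters. The values for all promoters are not limited to genes with a promoter region. Of the 8200 genes with both, 5651 held GGGCGG, 849 TTGCNNAA, 708 TATAAA, 267 TGTTTAC, 146 CAAAGTCC and 117 CAAAGGTC, and 770 held at most 6 CpG. These are matches of letters and not sites of binding, and their absence says only that the letters are not in the window.

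The 13 promoter regions of the clotting genes were lower in Mettl3-HKO in 12 cases on the authors' scale, as were 12073 of all 14387 promoter regions, and 4 of them, those of F5, F7, F10 and Fgg, were at least 2-fold lower, where 16.3% of all promoter regions were. None was at least 2-fold higher, against 4.07% of all. Their median log2 ratio was −0.69, and −0.86 when the strongest region of each gene was used, against −0.56 for all promoter regions. Relative to that median, 9 of the 13 were lower, and counting error left 6 wholly below it, 1 (F11) wholly above it and 6 on either side. The same count of intervals was not made over all promoter regions, so it marks no trait of these genes. With a threshold of 1.5-fold 9 were lower, where 47.8% of all promoter regions were. After centring on the median no member region was 2-fold lower, where 2.72% of all promoter regions were. All 13 were in the upper 50% of regions by mean RPM, among which 16.6% of promoter regions were at least 2-fold lower.

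**Figure D1:**
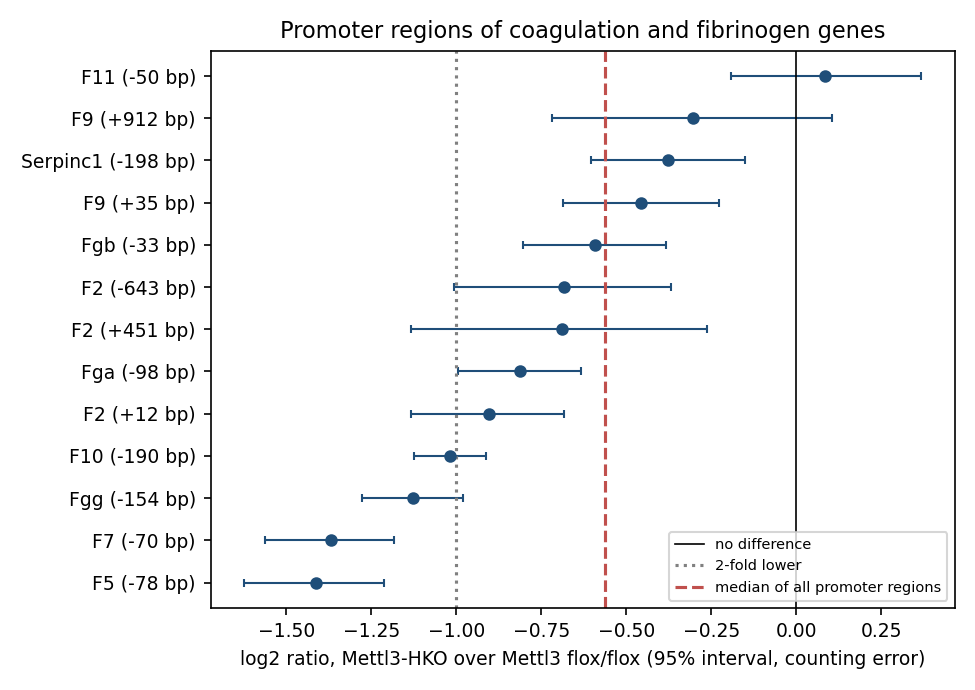
Log2 ratio (Mettl3-HKO to control) for the 13 promoter regions, each named by its gene and the distance of its centre from the TSS, with 95% intervals of counting error and 1 library per group. F5 and F7 sit lowest at −1.41 and −1.37 and F11 highest at 0.08. The dashed line is the median of all promoter regions at −0.56, and the dotted line marks 2-fold lower. Relative to the dashed line the regions of F9, Serpinc1 and F11 are higher, and the intervals of F9 and Serpinc1 cross it.

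In reads per base relative to the genome (fold enrichment), the members were more open in the middle of their range than all promoter regions, and 3 of the 13, at F9 and F2, were below the middle of all promoters in the control liver. Their fold enrichment ran from 13.3 to 98.7 in Mettl3 flox/flox, with a median of 35.9 against 25.8 for all promoter regions, and from 10.8 to 45.2 in Mettl3-HKO, with a median of 22.2 against 16.7. The regions were short, 304 to 1695 bp with a median of 586 bp, against 764 bp for all. The Fgg promoter was the most open member in both libraries.

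**Figure D2:**
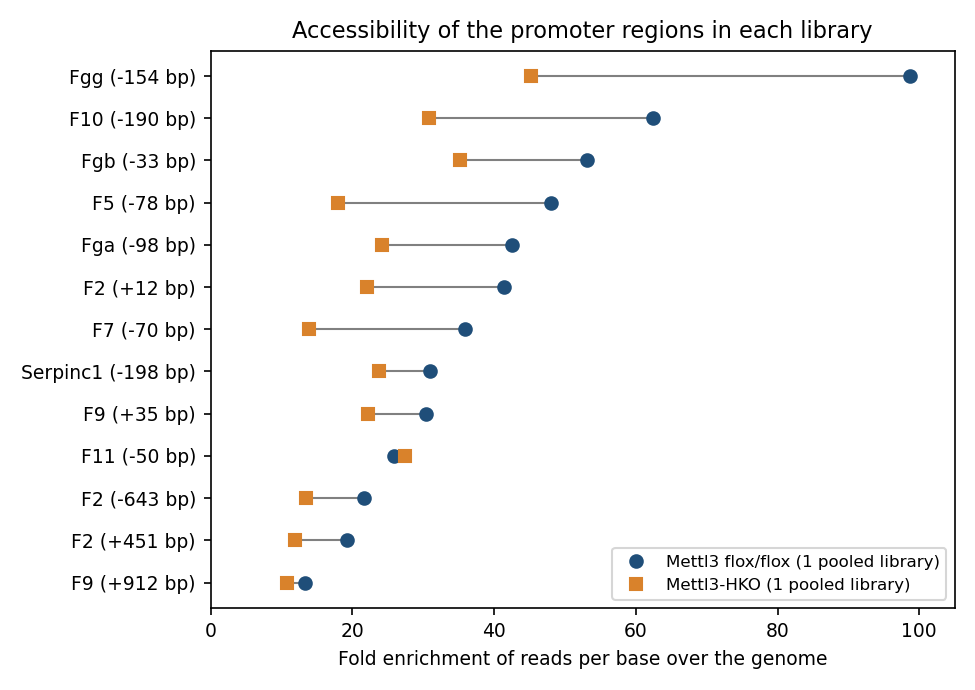
Fold enrichment of reads per base over the genome at the 13 promoter regions, with 1 point per pooled library (circles, Mettl3 flox/flox; squares, Mettl3-HKO) and a line joining the points of a region. The widest gap is that of Fgg, from 98.7 to 45.2, and the F11 points nearly coincide at 25.8 and 27.4.

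F7, which binds tissue factor to start clotting, had a promoter region at chr8:13025410-13026519, centred 70 bp before its TSS. It held 770 counts in Mettl3 flox/flox and 327 in Mettl3-HKO, and its fold enrichment was 35.9 and 13.9. The log2 ratio was −1.37 (95% interval −1.56 to −1.18), 2.58-fold lower, and 5.16% of all promoter regions had a lower ratio. The whole interval lay below the median of promoter regions, with a ratio of −0.81 relative to it.

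F10, the protease on which both arms of the cascade converge, lies directly downstream of F7 and had the member promoter region with the most counts, at chr8:13036271-13037965. It held 2046 and 1110 counts, for a log2 ratio of −1.02 (−1.12 to −0.91) that was only just past 2-fold lower (2.02-fold). Relative to the median of promoter regions it was −0.45. A separate region in intron 2 of F10, at chr8:13038318-13038585, lay 1143 bp from the start, just outside the promoter window, and had a peak called in Mettl3 flox/flox only. It held 235 and 78 counts, 3.28-fold lower in Mettl3-HKO (log2 ratio −1.71, −2.12 to −1.35). It was in the table only through the library in which it was high, so no difference from the promoter is drawn.

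The neighbourhood of F7 and F10 lay below 0 throughout. From the F7 promoter to that of Proz, the gene of protein Z, a cofactor in the inhibition of activated F10, 6 regions covered 35.7 kb, and all 6 had log2 ratios below 0, from −1.87 to −0.56 with a median of −1.19, where 12073 of 14387 promoter regions and 33011 of 55162 others were below 0. The F10 regions in introns 2 and 7 had a peak in Mettl3 flox/flox only, and the 4 regions with a peak in both libraries had a median of −0.98. The lowest was in intron 7 of F10, with 82 and 24 counts. The highest, at −3483 bp from the Proz start, held 771 and 576 counts and lay at −0.56, against a median of −0.27 for regions outside promoters. The Proz promoter held 530 and 301 counts (log2 ratio −0.95). On the other side, the nearest promoter region belonged to Atp11a, a phospholipid flippase gene 268 kb away, with 216 and 206 counts and a log2 ratio of −0.20.

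F11, the factor XI gene, lies elsewhere on chromosome 8 and was the member whose promoter was not lower. The region at chr8:45261882-45262281, centred 50 bp before the TSS, held 199 counts in Mettl3 flox/flox and 232 in Mettl3-HKO, and its fold enrichment was 25.8 and 27.4. Its log2 ratio of 0.08 had an interval that held 0 (−0.19 to 0.37), and relative to the median of promoter regions it was 0.65 (0.37 to 0.93), above 85.9% of all promoter regions. The difference of the F7 promoter from it was −1.45 (−1.80 to −1.12) on the log2 scale and that of the F10 promoter −1.10 (−1.40 to −0.80), with 95% exact conditional intervals that do not depend on how the libraries are scaled, both chosen for comparison with their values known.

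Of the other 6 regions of F11, 5 had ratios between −0.37 and 0.08. The strongest, 22448 bp downstream of the start and beyond the gene, held 598 and 640 counts (log2 ratio −0.04), and the 2 regions in intron 3 held 300 and 279 counts (−0.24) and 375 and 318 counts (−0.37). Upstream, a region at −3074 bp held 269 and 313 counts (0.08) and one at −16145 bp held 77 and 84 (−0.01). The highest ratio of any member region was at −5284 bp, at chr8:45267168-45267463 in the 3′ UTR of Klkb1, with 84 and 164 counts and a log2 ratio of 0.82 (0.44 to 1.23), higher than the F11 promoter by 0.74 (0.26 to 1.23). The region was picked because its ratio was highest, so the interval of this difference is no test. Relative to the medians of their own kinds the region was at 1.10 and the F11 promoter at 0.65. Klkb1 encodes plasma prekallikrein, a paralogue of factor XI in the contact system, and its own promoter regions were below 0 with intervals that held the median of promoter regions. It had 143 and 86 counts at its start (−0.86, −1.27 to −0.47) and 68 and 37 counts at −554 bp (−0.996, −1.63 to −0.42), the latter with a peak in Mettl3 flox/flox only. Over the 11 regions of both genes the log2 ratios ran from −0.996 to 0.82 with a median of −0.04 (−0.14 over the 8 with a peak in both libraries) and none was at least 2-fold lower, where 16.3% of all promoter regions and 18.8% of the others were.

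**Figure D3:**
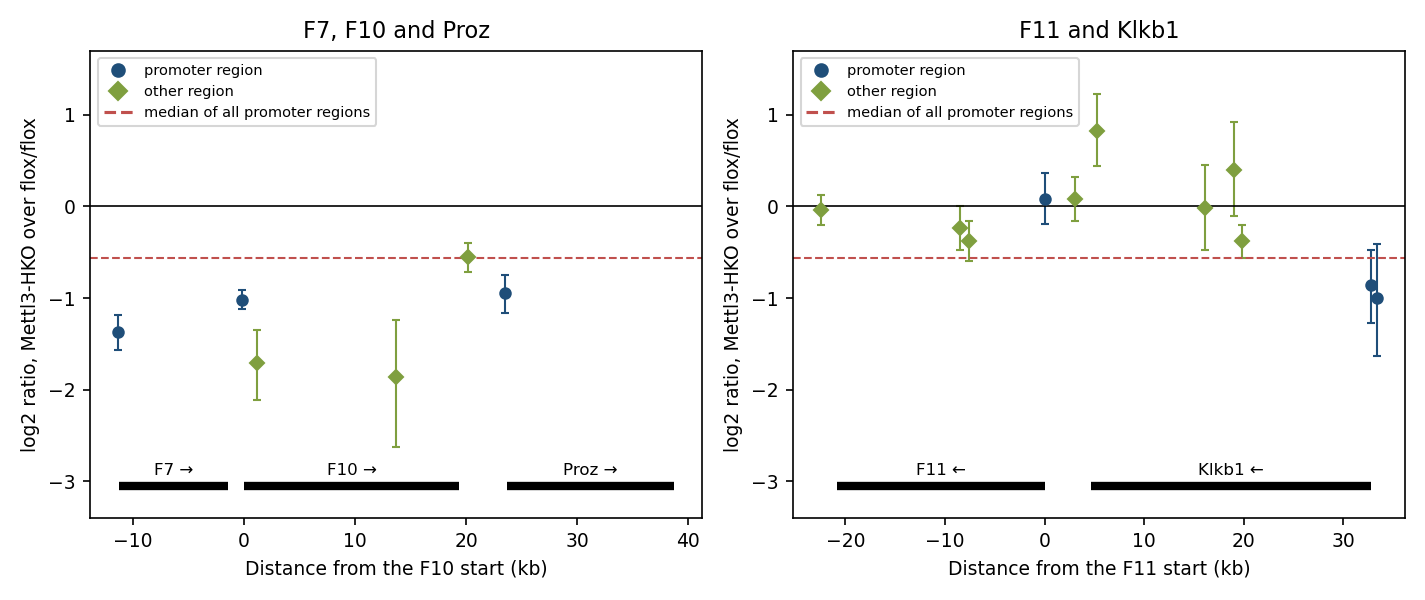
Log2 ratio of each region, with its 95% interval of counting error, by distance in kb from the F10 start (left, 6 regions of F7, F10 and Proz) and from the F11 start (right, 11 regions of F11 and Klkb1). Black bars are the genes with arrows for their direction, circles are promoter regions and diamonds other regions. All points on the left are at or below −0.56, and those on the right run from −0.996 to 0.82.

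F9 (factor IX, the factor missing in haemophilia B) showed a promoter that differed little from the median of promoters and a region in intron 4 that lay below the median of regions outside promoters. The region over its start, at chrX:59999197-59999803 in the 5′ UTR, held 356 and 285 counts, a log2 ratio of −0.46 (−0.69 to −0.23) and 0.11 above the median of promoter regions. A second region in intron 1, centred 912 bp after the start and so just inside the window, held 108 and 96 counts (−0.30, −0.72 to 0.10). In intron 4, the region at chrX:60014337-60015003 held 394 and 186 counts and was 2.32-fold lower (log2 ratio −1.21, −1.48 to −0.96), a difference from the F9 promoter of −0.76 (−1.11 to −0.41). A weaker region in intron 6 held 56 and 23 counts (−1.38) with a peak in Mettl3 flox/flox only, a region farther along intron 6, closer to another start, held 44 and 25 (−0.93), also with a peak in Mettl3 flox/flox only, and one in intron 3 held 69 and 49 counts (−0.62, −1.19 to −0.08). F9 and F10 thus held all 3 of the member regions outside promoters that were at least 2-fold lower. There were 23 such member regions, and of all regions outside promoters 18.8% were at least 2-fold lower. Those in F10 intron 2 and F9 intron 6 were in the table through a peak in Mettl3 flox/flox only.

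F2, the prothrombin gene, had 3 promoter regions. The one over exon 1, at chr2:91636104-91636662, held 447 and 262 counts, a log2 ratio of −0.90 (−1.13 to −0.68), and stayed below the median of promoter regions over its whole interval. The regions on either side were weaker, with 112 and 76 counts in intron 1 (−0.69, −1.13 to −0.26) and 205 and 140 counts at −643 bp (−0.68, −1.01 to −0.37), and their intervals held that median. The region in intron 1 had a peak in Mettl3 flox/flox only. In intron 2 a further region held 110 and 104 counts (−0.22) with a peak in Mettl3-HKO only. The nearest promoter on the other side, that of Arhgap1 12.4 kb away, held 615 and 571 counts (−0.24).

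F5, the cofactor of activated F10, had the lowest promoter ratio of the set. Its region at chr1:164151398-164152123 held 673 counts in Mettl3 flox/flox and 277 in Mettl3-HKO, with fold enrichment of 48.0 and 18.0. The log2 ratio was −1.41 (−1.62 to −1.21), 2.66-fold lower, and 4.43% of all promoter regions had a lower one. Relative to the median of promoter regions it was −0.85, and it differed from the F7 promoter by −0.04, with an interval of the difference (−0.33 to 0.24) that held 0. The table also places the region in intron 1 of an overlapping Ensembl gene without a symbol, and reads of both genes cannot be told apart there.

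In and just past F5 lay 9 more regions, each closer to another start and so no member by the rule. The 6 strongest were below 0, from −1.49 to −0.83. Those nearest the promoter, in intron 1, held 299 and 116 counts (log2 ratio −1.49) and 372 and 200 counts (−1.03). A region in intron 3 with 428 and 175 counts had −1.42, whereas intron 2 held 432 and 266 counts (−0.83), intron 19 held 313 and 183 (−0.91) and a region past the 3′ end held 243 and 141 (−0.92). The 3 weakest, with 26 to 108 counts in Mettl3 flox/flox, were above 0, at 0.24, 0.03 and 0.25. Over all members, 15 such regions had a median log2 ratio of −0.85, from −1.87 to 0.25, and 4 were at least 2-fold lower. The 2 in intron 1 of F5 lie at −194 and −837 bp from the start of another gene and so count as promoter regions, of which 16.3% were at least 2-fold lower with a median of −0.56, and the rest lie outside promoters, where 18.8% were with a median of −0.27. F5 supplied 9 of the 15 and 3 of the 4.

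Serpinc1, whose product antithrombin inhibits the proteases above, had 356 and 301 counts on its promoter region at chr1:160978150-160978746. The log2 ratio of −0.38 (−0.60 to −0.15) was below 0 but 0.19 above the median of promoter regions, which its interval held. Both genes lie on chromosome 1, and the F5 promoter differed from that of Serpinc1 by −1.04 (−1.35 to −0.73) on the log2 scale. In intron 1 of Serpinc1, 2 regions held 217 and 149 counts (−0.68, −0.99 to −0.37) and 366 and 236 counts (−0.77, −1.01 to −0.53). Their intervals overlapped that of its promoter. Closer to another start, regions in introns 1 and 2 held 639 and 507 counts (−0.47) and 89 and 66 counts (−0.56).

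The fibrinogen genes lie side by side on chromosome 3, Fgg and Fga on the plus strand and Fgb facing them on the minus strand, and their products are needed in fixed proportion for the assembled protein. The ratios of their promoter regions were not equal. Fgg, the gene of the γ chain, had 1118 and 562 counts at chr3:83007415-83008000, with fold enrichment of 98.7, higher than in 97.7% of promoter regions of Mettl3 flox/flox, and of 45.2. Its log2 ratio was −1.13 (−1.28 to −0.98), 2.18-fold lower. Fga, the gene of the α chain, had 653 and 408 counts at chr3:83025721-83026514 (−0.81, −0.996 to −0.63). Fgb, the gene of the β chain, had 445 and 324 counts at chr3:83049680-83050113 (−0.59, −0.80 to −0.38), and was −0.03 relative to the median of promoter regions.

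The Fgg promoter differed from the Fga promoter by −0.31 (−0.55 to −0.08) and from the Fgb promoter by −0.53 (−0.79 to −0.28) on the log2 scale whatever the scaling, with the first interval ending near 0 and both too narrow by as much as duplicate reads make them. Fga and Fgb differed by −0.22, with an interval from −0.50 to 0.06 that held 0. The Fgg promoter region also lies in intron 1 of an overlapping Ensembl gene without a symbol. The nearest promoter beyond the cluster, that of the splicing factor gene Plrg1 5.02 kb from the Fgb promoter, held 748 and 607 counts (−0.44).

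Outside the promoters, the cluster held a region that was higher in Mettl3-HKO. It spanned 1447 bp at chr3:83040272-83041718, at the 3′ end of Fgb, and held 681 counts in Mettl3 flox/flox and 1238 in Mettl3-HKO, with fold enrichment of 24.4 and 40.3. It was 1.65-fold higher in Mettl3-HKO (log2 ratio 0.73, 0.59 to 0.86). The table places it in the 3′ UTR of Fgb, whose gene model there ends at 83040141, while in RefSeq the gene ends at 83042246, 528 bp short of the region. A peak was called in Mettl3-HKO only, so that the region was in the table through the library in which it was high, although 681 counts is high for such a region: of the 14928 regions without a peak in Mettl3 flox/flox, 4 had that many counts or more there, and their median was 20.

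The regions around it did not share the higher ratio. Just past it, the region at chr3:83039701-83040057 held 409 and 342 counts (−0.39), the next at chr3:83038539-83039289 held 599 and 409 (−0.69), and a region at −2449 bp from the Fgb start held 354 and 240 (−0.69). Between Fgg and Fga, the region at −5742 bp from the Fga start held 509 and 350 counts (−0.67). The region outside the promoters with the most counts in Mettl3 flox/flox, at −4563 bp from the Fgg start on the side away from Fga, held 847 and 566 (−0.72). Between Fgg and Fga, but closer to another start, chr3:83015322-83015656 held 120 and 168 counts (0.35, 0.0031 to 0.70) with a peak in Mettl3-HKO only. Other weak regions had ratios from −0.42 to 0.32, with 119 and 127 counts in the last exon of Fga (−0.04), 82 and 113 just after it (0.32), 126 and 150 counts at −2971 bp from the Fgg start (0.11) and 78 and 64 counts at −12304 bp (−0.42). The regions at 0.32 and 0.11 also had a peak in Mettl3-HKO only. In the body of Fgg, intron 5 held 320 and 195 counts (−0.85) and exon 8 held 142 and 118 (−0.40). Over 57.1 kb the cluster had 16 regions with a median log2 ratio of −0.50, 1 of them at least 2-fold lower, where 16.3% of all promoter regions and 18.8% of the others were, and 4 above 0, as were 22151 of the 55162 regions outside promoters. All 4 had a peak in Mettl3-HKO only, and the 11 regions with a peak in both libraries had a median of −0.69, with none above 0.

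**Figure D4:**
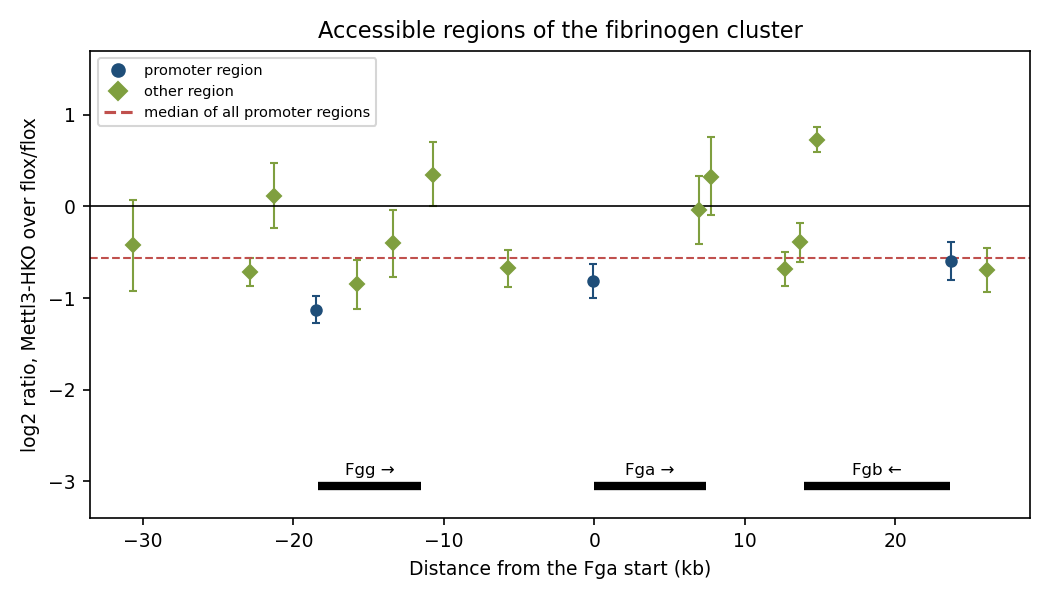
Log2 ratio of the 16 regions of the fibrinogen cluster, with 95% intervals of counting error, by distance in kb from the Fga start. Circles are promoter regions, diamonds other regions, black bars the genes as the table places them with arrows for their direction, and the dashed line the median of all promoter regions. The Fgg promoter is lowest at −1.13, and the region at the 3′ end of Fgb is highest at 0.73.

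Across all 23 member regions outside promoters, 3 were at least 2-fold lower, where 18.8% of all such regions were, and none was at least 2-fold higher, where 15.6% were. The median log2 ratio was −0.39 against −0.27 for all regions outside promoters, and 13 of the 23 were below that value. Peaks had been called in both libraries in 28 of the 36 member regions, in Mettl3 flox/flox only in 3 and in Mettl3-HKO only in 5. Of all 69549 regions, 14928 had no peak in Mettl3 flox/flox, and the other classes were not counted over all regions. All 5 member regions with a peak in Mettl3-HKO only were outside promoters, where 23 of the 36 lay.

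Promoter regions of neighbouring genes had values close to those of all promoter regions. The closest promoter region on either side of each locus, 14 in all, had a median log2 ratio of −0.54, the lowest being −0.95 at Proz, with 3 above 0 and none at least 2-fold lower. Of all promoter regions, with a median of −0.56, 2314 of 14387 were above 0 and 16.3% at least 2-fold lower. Beside F5, the member with the lowest promoter ratio, Slc19a2, a thiamine transporter gene, had 2896 and 1923 counts (−0.73).

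Of 28 other genes of haemostasis, 21 had a promoter region, and their 25 regions had a median log2 ratio of −0.62, with 3 at least 2-fold lower and 3 at least 2-fold higher, 2 of the latter with a peak in Mettl3-HKO only. Over all promoter regions the median was −0.56, with 16.3% lower and 4.07% higher by that fold. The natural anticoagulants had a median of −0.74 over 8 regions. Serpind1 (heparin cofactor II) held 227 and 111 counts (−1.16), Proc (protein C) 582 and 313 (−1.03) and Pros1 (protein S, its cofactor) 1679 and 1008 (−0.87). Thbd, the gene of the endothelial thrombin receptor thrombomodulin, stood apart from them with 80 and 186 counts at its start (1.07) and 36 and 77 beside it (0.94), in the direction of the endothelial markers given above. No promoter region was found for Procr, Serpina5 and Tfpi.

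The fibrinolysis genes, whose products dissolve clots, held both low and high ratios, with a median of −0.35 over 8 regions. Plg (plasminogen) held 953 and 640 counts (−0.71) and Serpinf2 (α2-antiplasmin) 232 and 126 (−1.01), while Plaur, the urokinase receptor gene, held 14 and 45 counts (1.48) and Plau, urokinase itself, 16 and 42 (1.20), both in the table through a peak in Mettl3-HKO only. The contact system and other factors had a median of −0.55 over 6 regions with none past 2-fold, from −0.996 at Klkb1 to −0.26 at Kng1, the kininogen gene, and F3, F8, F13a1 and Vwf had no promoter region. The genes of the vitamin K cycle and of the carboxylation of F2, F7, F9 and F10 were close to the median of all promoter regions. Ggcx, the carboxylase, was at −0.51, Vkorc1 at −0.73 and Vkorc1l1 at −0.59.

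**Figure D5:**
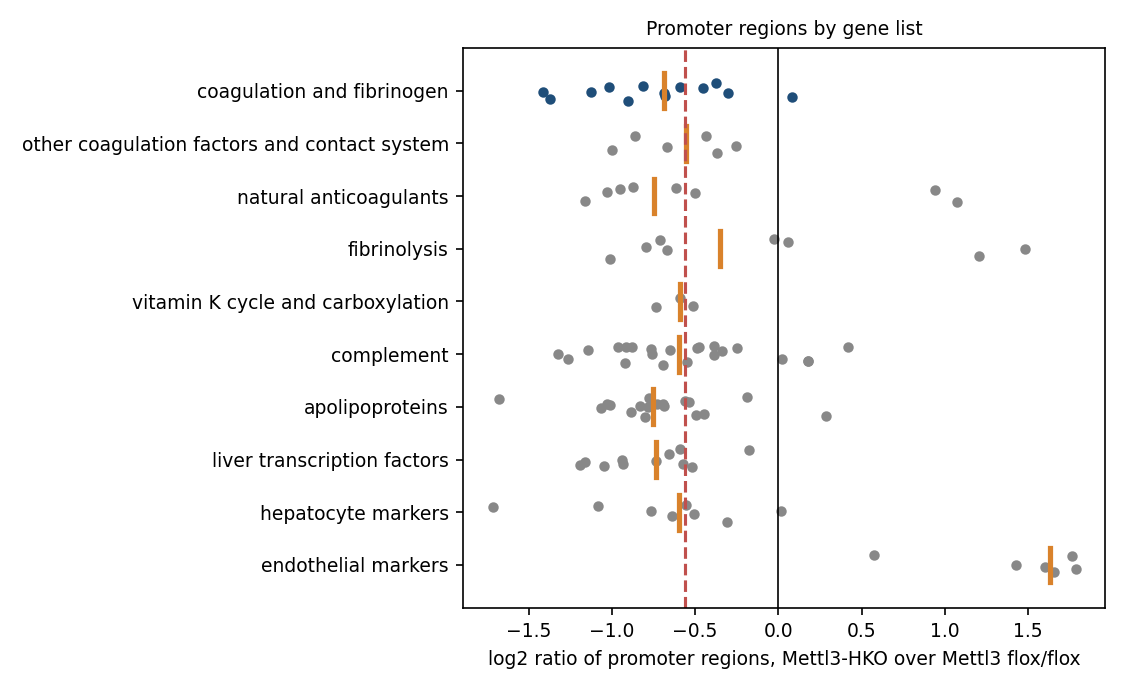
Log2 ratio (Mettl3-HKO to control) of every promoter region in each gene list, 1 point per region, spread vertically only to keep points apart. The orange bar is the median of each list, −0.69 for the coagulation and fibrinogen genes and 1.63 for the endothelial markers (5 of 6 with a peak in Mettl3-HKO only), and the dashed line is the median of all promoter regions at −0.56. Points far to the right among the anticoagulants and fibrinolysis genes are Thbd, Plaur and Plau.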

How the data were processed

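Nuclei of pooled liver were treated with Tn5 and sequenced as paired reads. The authors trimmed reads with skewer, aligned them with BWA to GRCm38, removed mitochondrial, improperly paired and low-quality reads and called peaks in each library with MACS2, keeping duplicates. How regions were merged and counted, and any shift for the Tn5 cut, is not given in the sources used here. Per region the authors deposited the count in each library, an RPM value (the count plus 1, scaled to the library total), a fold enrichment (the ratio of read density on the region to that of the genome), and a log2 ratio, which is their own comparison and was not used.

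Of 74821 rows, 5272 repeated a region and were used once. Starts were converted to count from 1. Ratios were computed from the counts with 1 read added, scaled by the totals. Clopper-Pearson intervals (95%) of the Mettl3-HKO share of a region's counts were put on the log2 scale, and differences between regions carry exact conditional odds ratio intervals. All cover counting error only, and duplicate reads make them too narrow. The calculations were tested on simulated counts. Sequences are from RefSeq.

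The 10 genes, the gene lists, the pairs of regions compared and the motifs were chosen with earlier results of these data known. Named genes were all members, the lowest and highest of each list of haemostasis genes, and the closest promoter region of another named gene on either side of a locus. Proc, Pros1, Plg and Plau, and the markers, transcription factors and Mettl3 given with values, were named besides, with values known. Some single genes and a motif within the lists and neighbours are not reported here. Alternatives covered scaling, fold threshold, added reads, window, region per gene and a filter on signal. The software was scipy 1.17.1, numpy 2.4.6, matplotlib 3.10.9 and pandas 2.3.3 under Python 3.11.15.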

Additional observations from a re-analysis of the deposited data

How the results depend on the processing

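The number of member promoter regions at least 2-fold lower in Mettl3-HKO was 4 on the authors' scale and depended on the scaling. On that scale 16.3% of all promoter regions were. The number was 1 (F5) when ratios were centred on all regions and 0 when centred on promoter regions. It was also 0 with scaling to the counts on regions, chosen after seeing the data. After centring on promoter regions 2.72% of all promoter regions were at least 2-fold lower. That share was not counted for the other scalings, added reads, windows or the strongest region per gene. A threshold of 1.5-fold gave 9 of 13, where 47.8% of all promoter regions passed it. The median log2 ratio of member promoter regions moved from −0.69 to −0.13 with centring on promoter regions and to −0.18 with scaling to the counts on regions. That of the regions outside promoters moved from −0.39 to −0.016 with centring on all regions and to 0.17 with centring on promoter regions. In each case the values move because 1 constant is added to every log2 ratio. Adding 0.5 or 10 reads, promoter windows of 500 or 2000 bp, the strongest region per gene and the upper 50% of mean RPM gave 4 or 5 regions at least 2-fold lower, and the differences between regions do not depend on scaling. No replicate could be left out with 1 library per group. No paired analysis was possible because each group has 1 library. Depth limits the weaker regions, such as those in F9 intron 6 and F10 intron 7, which have wide intervals.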

Other observations

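Other groups of hepatocyte genes gave values that bear comparison with those of the clotting genes. The promoter regions of 9 liver transcription factor genes had a median log2 ratio of −0.73 over 11 regions, all below 0. Foxa2, a pioneer factor, was at −1.19, and the 2 regions of Foxa1 were at −1.05 and −1.16, the 3 that were at least 2-fold lower. Hnf4a, which regulates many clotting genes, was at −0.94, Cebpb at −0.52 and Onecut1 at −0.18. Apolipoprotein genes had a median of −0.75 over 18 regions, with 4 at least 2-fold lower, and complement genes −0.60 over 22 regions, with 3. Those 3, at C1ra and Masp2, had a peak in Mettl3 flox/flox only. Of the 4 apolipoprotein regions, those 824 bp after the Apoe start and 822 bp after the Apof start did as well. Such regions were in the table through the library in which they were high. Of all promoter regions 16.3% were at least 2-fold lower, with a median of −0.56. No test was made of the clotting genes against these lists.

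A feature noticed after the values were seen was the C/EBP letters TTGCNNAA. The 5 members that held them had log2 ratios of the strongest promoter region from −0.81 to 0.08 (median −0.46), and the 5 without them from −1.41 to −0.90 (median −1.13), so the groups did not overlap. Over the 8200 genes with both a promoter region and a RefSeq promoter, the medians were −0.59 for 849 genes with the letters and −0.58 for 7351 without. The letters are 1 of 6 motifs searched in 10 genes, so this is a description with no test. The low CpG content of the members was likewise set beside all genes: 770 genes with at most 6 CpG in the 300 bases had a median of −0.49, with 18.6% at least 2-fold lower, and the 7430 with more had −0.59, with 14.5%.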
